A study of Arabidopsis thaliana with 4 samples.

Results

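The WRKY genes of Arabidopsis thaliana were described in 4 genotypes grown without phosphate. Members were all genes whose name in the authors' table contains WRKY followed by a number, which gave 68 of 33557 genes. The genotypes were the double mutant hho2phr1, the single T-DNA insertion mutants phr1 and hho2-1, and the wild type Col-0, which is also the ecotype of all 4. Plants of every genotype spent 7 days on vertical agar plates of MS medium lacking phosphate, so low phosphate is shared by all groups and no phosphate-fed plants were compared. PHR1 is a MYB-type transcription factor that activates phosphate starvation genes, and HHO2 is a GARP-type transcription factor of the NIGT1 family. The labels do not name the organ that was harvested.

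Poly(A)+ RNA was sequenced from 1 library per genotype, so no genotype was replicated and differences between genotypes cannot be told apart from differences between single libraries. Each allele is carried by 2 of the 4 libraries, and its differences in both backgrounds are given side by side. No test was made; a fit with 1 additive term per allele, which would count the interaction of the alleles as error, was not used. Levels are FPKM, fragment counts scaled by the authors to transcript length and library size, each with the 95% interval deposited by the authors. Differences are on the log2(FPKM + 1) scale, which understates the change of low genes. A gene with at least 1 FPKM in either library was called when this difference reached 1 in size, that is, 2-fold. The steps between low FPKM values correspond to about 40700000 fragments for hho2phr1, 39500000 for phr1, 45000000 for hho2-1 and 48100000 for Col-0. PHR1 itself was at 6.5 FPKM in hho2phr1 and 7.54 FPKM in phr1, against 43.2 FPKM in hho2-1 and 37.7 FPKM in Col-0. HHO2 was at 51.8 FPKM in hho2phr1 and 59.8 FPKM in hho2-1, against 81.2 FPKM in phr1 and 90.7 FPKM in Col-0, so its transcript remained detectable in both lines that carry the hho2 insertion. Genes of green tissue (RBCS1A, 1470, 1290, 1250 and 1230 FPKM in hho2phr1, phr1, hho2-1 and Col-0) and of roots (EXPA7, a root hair expansin, 18.9, 17.9, 19.0 and 18.8 FPKM in the same order) were both present in every library.

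WRKY proteins are plant transcription factors named after the amino acids WRKY at the start of a conserved DNA-binding domain that closes with a zinc finger. Most bind the W-box, a short DNA element with the core TTGAC, and many are themselves induced by pathogens, salicylic acid, wounding or nutrient stress. The family is divided by structure: group I proteins carry a pair of WRKY domains, group II proteins carry 1 domain with a C2H2 finger and fall into subgroups IIa to IIe, and group III proteins carry 1 domain with a C2HC finger. Several members act on phosphate transport: WRKY6 and WRKY42 repress the phosphate exporter gene PHO1, WRKY45 activates the uptake transporter gene PHT1;1, and WRKY75 is induced by phosphate starvation.

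Translated reference coding sequences placed 10 members in class I, 45 in class II and 13 in class III. Class II took every member with 1 domain and no C2HC finger. At the level of I, II and III, 66 of the 68 placements matched the family's published grouping. Subgroups IIa to IIe were taken from that grouping and not checked. The exceptions, WRKY10 and WRKY19, are listed as group I, but 1 domain was found in each. In WRKY19 neither type of finger was found. The heptapeptide that gives the family its name was WRKYGQK in 65 members and WRKYGKK in the other 3, which are WRKY50, WRKY51 and WRKY59. The coding bases of the heptapeptide are shown for the members with the variant and for 3 others that the results turn on (RefSeq, assembly TAIR10.1); capitals mark the sixth codon, CAA for glutamine or AAG for lysine.
WRKY46, chr2:19044313-19044333, minus strand, WRKYGQK: tggagaaaatatgggCAAaaa
WRKY70, chr3:20909760-20909780, minus strand, WRKYGQK: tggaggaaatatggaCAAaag
WRKY8, chr5:18802528-18802548, minus strand, WRKYGQK: tggagaaagtatggcCAAaaa
WRKY50, chr5:9147579-9147599, minus strand, WRKYGKK: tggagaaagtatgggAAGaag
WRKY51, chr5:25908864-25908884, plus strand, WRKYGKK: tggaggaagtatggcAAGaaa
WRKY59, chr2:9335762-9335782, minus strand, WRKYGKK: tggaggaaatacggaAAGaag

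The 250 bases before the annotated start are shown for 4 group III genes that were higher with the phr1 allele in at least 1 background (RefSeq, TAIR10.1, each read 5′ to 3′ on the gene's own minus strand). Capitals mark W-boxes, searched as TTGACC and TTGACT on both strands, so that a box on the opposite strand reads GGTCAA or AGTCAA.
WRKY62, chr5:352096-352345, minus strand: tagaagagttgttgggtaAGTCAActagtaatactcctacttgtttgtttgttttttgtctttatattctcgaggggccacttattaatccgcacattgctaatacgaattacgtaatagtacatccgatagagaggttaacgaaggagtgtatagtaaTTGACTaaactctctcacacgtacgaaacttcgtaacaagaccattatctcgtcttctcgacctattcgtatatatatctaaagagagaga
WRKY30, chr5:8154711-8154960, minus strand: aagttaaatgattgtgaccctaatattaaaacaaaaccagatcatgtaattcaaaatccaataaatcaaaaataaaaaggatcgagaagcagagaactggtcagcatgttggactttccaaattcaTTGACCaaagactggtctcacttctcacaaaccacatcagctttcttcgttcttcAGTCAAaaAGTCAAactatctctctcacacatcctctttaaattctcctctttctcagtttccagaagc
WRKY46, chr2:19044956-19045205, minus strand: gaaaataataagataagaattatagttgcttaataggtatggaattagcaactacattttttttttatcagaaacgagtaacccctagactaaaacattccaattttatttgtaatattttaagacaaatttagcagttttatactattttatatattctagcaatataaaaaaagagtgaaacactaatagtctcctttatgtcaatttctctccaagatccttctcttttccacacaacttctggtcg
WRKY70, chr3:20910624-20910873, minus strand: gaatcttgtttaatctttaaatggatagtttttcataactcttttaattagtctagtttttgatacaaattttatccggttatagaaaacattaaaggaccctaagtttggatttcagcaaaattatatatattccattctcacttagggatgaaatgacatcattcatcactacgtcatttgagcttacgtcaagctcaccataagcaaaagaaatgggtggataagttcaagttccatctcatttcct

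WRKY62 held 2 W-boxes in this window and WRKY30 held 3, whereas neither spelling occurred in those of WRKY46 and WRKY70. Within 250 bases, 24 of the 68 members (35.3%) held a W-box, against 28.5% of 26687 promoters of the same length. The element bound by PHR1, searched as GNATATNC on both strands, occurred in 2 members (2.94%), WRKY71 and WRKY55, against 5.44% of all promoters. In a window of 1000 bases a W-box occurred in 53 members (77.9%) against 67.3% of all genes, and the PHR1 element in 22 members (32.4%) against 20.3%. No test was made of these shares, and a match is only a run of letters.

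The family held both abundant and barely detected genes. Of the 68 members, 59 had at least 1 FPKM in any library, against 20650 of all 33557 genes, and 31 had at least 10 FPKM in every library. WRKY65 had the highest mean, 92.6 FPKM, with 93.8 FPKM in hho2phr1, 103 FPKM in phr1, 77.9 FPKM in hho2-1 and 95.2 FPKM in Col-0. WRKY26, a group I member linked to heat tolerance together with WRKY25 and WRKY33, had 81.8 FPKM in hho2phr1, 100 FPKM in phr1, 89.6 FPKM in hho2-1 and 84.8 FPKM in Col-0. These values lie close together, and the order of WRKY65 and WRKY26 differs between libraries.

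WRKY33, which drives synthesis of the antifungal compound camalexin, had 94.9 FPKM in hho2phr1, 94.0 FPKM in phr1, 73.5 FPKM in hho2-1 and 83.2 FPKM in Col-0. WRKY25, the fifth by mean, had 51.4, 44.3, 45.9 and 49.5 FPKM in the same order of genotypes. None of these abundant genes was called in any comparison, and no pair of their intervals was apart. The other 9 members stayed under 1 FPKM in all libraries, and WRKY64 and WRKY68 were listed at 0 throughout. WRKY33, WRKY34, WRKY40, WRKY53, WRKY68 and WRKY69 each overlap another annotated gene. Their levels, with the 0 of WRKY68, are uncertain to the extent that the reads of the overlap were split between both.

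**Figure D1:**
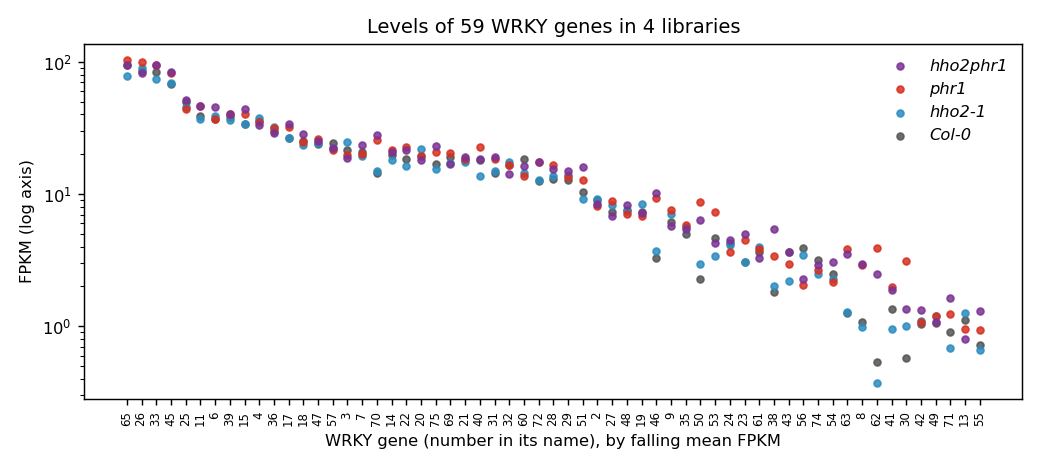
Level of each of the 59 WRKY genes with at least 1 FPKM in any library, in FPKM on a log axis, ordered by falling mean; each point is 1 library, coloured by genotype. The 4 points of most abundant genes nearly coincide, and the spread is wider among genes under 10 FPKM, where WRKY46, WRKY50, WRKY62 and WRKY30 stand out.

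With the phr1 allele, 5 of the 58 WRKY genes tested were called higher in phr1 than in Col-0 (8.62%) and none lower. They were WRKY46, WRKY62, WRKY63, WRKY30 and WRKY50. Over all 20323 genes tested in this comparison, 0.773% were called higher and 0.576% lower. In the hho2 background, 4 of 59 members (6.78%) were called higher in hho2phr1 than in hho2-1 and none lower, namely WRKY46, WRKY62, WRKY38 and WRKY8. Over all 20456 genes tested there, 1.27% were called higher and 0.719% lower.

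These 2 comparisons use the phr1 allele against its wild-type form and share no library. Taken as a pair, 7 of 59 members (11.9%) were at least 1.5-fold higher with the phr1 allele in both HHO2 backgrounds and none was lower, against 1.1% of all 20650 genes higher and 0.421% lower. The 7 were WRKY46, WRKY70, WRKY62, WRKY38 and WRKY63 of group III and WRKY50 and WRKY8 of group IIc. Just inside this rule, by the smaller of the pair of log2 differences, were WRKY38 at 0.64 and WRKY70 at 0.79, and just outside it were WRKY72 at 0.43, WRKY23 at 0.42 and WRKY41 at 0.34. The RNA is from bulk tissue, in which fewer cells of a type and less RNA per cell cannot be told apart. Of 6 organ genes none was called between phr1 and Col-0. The light-harvesting gene LHCB1.1 was at 106 FPKM (84.1 to 129) in phr1, against 188 FPKM (149 to 227) in Col-0. That difference of −0.82 was under 2-fold, but the intervals were apart. Between hho2phr1 and hho2-1 LHCB1.1 differed the other way, by 0.46. In that comparison 1 organ gene, the root aquaporin gene TIP2;3, was called higher in hho2phr1, at 14.5 FPKM, against 6.75 FPKM in hho2-1. The 3 shoot genes summed to 2380 FPKM in hho2phr1, 1740 FPKM in phr1, 2000 FPKM in hho2-1 and 1840 FPKM in Col-0, and the 3 root genes to 179, 182, 150 and 179 FPKM in the same order, with none of the 6 at 0. Neither sum was split by PHR1 genotype, but 1 gene made up most of each. In the shoot sum this was RBCS1A. In the root sum it was the phosphate transporter gene PHT1;4, at 146, 149, 125 and 145 FPKM in the same order. The sums therefore cannot show whether organ composition was the same, which was not tested.

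WRKY46 (AT2G46400, chr2:19043414-19044826, TAIR10), which acts with WRKY70 and WRKY53 in basal resistance, was at 10.2 FPKM (interval 7.36 to 13.0) in hho2phr1 and 9.32 FPKM (6.7 to 11.9) in phr1. It was at 3.74 FPKM (2.42 to 5.05) in hho2-1 and 3.27 FPKM (2.08 to 4.46) in Col-0. Both libraries with the phr1 allele were higher than both with wild-type PHR1, and their intervals did not overlap. The log2 difference was 1.27 between phr1 and Col-0 and 1.24 between hho2phr1 and hho2-1, or 2.85-fold and 2.72-fold by the FPKM values.

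WRKY70 (AT3G56400, chr3:20908928-20910481), which promotes salicylic acid responses and restrains jasmonic acid responses, was the most abundant group III gene. It reached 28.2 FPKM (21.5 to 34.8) in hho2phr1 and 25.7 FPKM (19.6 to 31.8) in phr1, against 15 FPKM (11.1 to 18.9) in hho2-1 and 14.4 FPKM (10.6 to 18.2) in Col-0. The differences of 0.79 between phr1 and Col-0 and 0.87 between hho2phr1 and hho2-1 were under 2-fold, so WRKY70 was not called, although the intervals were apart in both. Its nearest relative WRKY54 had 3.06 FPKM in hho2phr1, 2.17 FPKM in phr1, 2.28 FPKM in hho2-1 and 2.5 FPKM in Col-0, with no such split.

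WRKY62 (AT5G01900, chr5:351008-352069) and WRKY38 (AT5G22570, chr5:7495539-7496784) are induced by salicylic acid and act as negative regulators of basal defence. WRKY62 was at 2.48 FPKM (1.43 to 3.53) in hho2phr1 and 3.9 FPKM (2.44 to 5.36) in phr1, against 0.375 FPKM (0.0994 to 0.65) in hho2-1 and 0.539 FPKM (0.184 to 0.894) in Col-0. Its log2 differences, 1.67 between phr1 and Col-0 and 1.34 between hho2phr1 and hho2-1, were the largest of the family in both comparisons. WRKY62 passed the minimum of 1 FPKM through the libraries with the phr1 allele only.

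WRKY38 was at 5.45 FPKM (3.61 to 7.28) in hho2phr1 and 3.4 FPKM (2.09 to 4.7) in phr1, against 2.0 FPKM (1.11 to 2.89) in hho2-1 and 1.82 FPKM (0.993 to 2.65) in Col-0. It was called between hho2phr1 and hho2-1, where it was 2.72-fold higher by the FPKM values and the intervals were apart. The difference of 0.64 between phr1 and Col-0 was not, and there the intervals overlapped. With equal sums of FPKM it was 0.57, which is below the 1.5-fold rule.

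WRKY63 (AT1G66600, chr1:24848320-24849364), known from abscisic acid and drought responses, was at 3.55 FPKM (2.1 to 4.99) in hho2phr1 and 3.85 FPKM (2.31 to 5.39) in phr1. It was at 1.29 FPKM (0.594 to 1.99) in hho2-1 and 1.27 FPKM (0.588 to 1.96) in Col-0. The groups did not overlap, with differences of 1.09 between phr1 and Col-0 and 0.99 between hho2phr1 and hho2-1. The coding sequence of WRKY63 is 83.6% identical to that of WRKY64 over 731 bases, so assignment of reads between them is uncertain, with WRKY64 listed at 0 everywhere.

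WRKY50 (AT5G26170, chr5:9147176-9148128), one of the genes with the WRKYGKK heptapeptide, takes part in the repression of jasmonic acid signalling by salicylic acid. It was at 6.34 FPKM (3.69 to 8.98) in hho2phr1 and 8.67 FPKM (5.35 to 12.0) in phr1, against 2.94 FPKM (1.42 to 4.46) in hho2-1 and 2.29 FPKM (1.01 to 3.57) in Col-0. The difference was 1.56 between phr1 and Col-0, with intervals apart, and 0.90 between hho2phr1 and hho2-1, with intervals that overlapped. WRKY51, its partner in that role and also a WRKYGKK gene, had 15.9 FPKM in hho2phr1 and 12.8 FPKM in phr1, against 9.18 FPKM in hho2-1 and 10.3 FPKM in Col-0, and was not called.

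WRKY8 (AT5G46350, chr5:18801218-18804043), studied in salt tolerance and defence, was at 2.98 FPKM (1.9 to 4.06) in hho2phr1 and 2.93 FPKM (1.86 to 4.01) in phr1. It was at 0.987 FPKM (0.496 to 1.48) in hho2-1 and 1.07 FPKM (0.553 to 1.6) in Col-0. The pair of libraries with the phr1 allele lay together and apart from the other pair. The differences were 0.92 between phr1 and Col-0 and 1.00 between hho2phr1 and hho2-1, and the intervals were apart in both comparisons. In the second, which gave its call, WRKY8 passed the minimum of 1 FPKM through hho2phr1 only, and after rescaling to equal sums of FPKM the difference was 0.94 and no longer called.

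WRKY30 (AT5G24110, chr5:8153115-8154709), an early gene of oxidative stress responses, was called in 1 background only. It was at 1.36 FPKM (0.739 to 1.98) in hho2phr1, 3.1 FPKM (1.97 to 4.23) in phr1, 1.0 FPKM (0.504 to 1.5) in hho2-1 and 0.575 FPKM (0.239 to 0.912) in Col-0. The phr1 library stood above the other 3, with a difference of 1.38 between phr1 and Col-0 against 0.23 between hho2phr1 and hho2-1. The Col-0 value is below the minimum of 1 FPKM, so this gene was tested through the higher library.

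**Figure D2:**
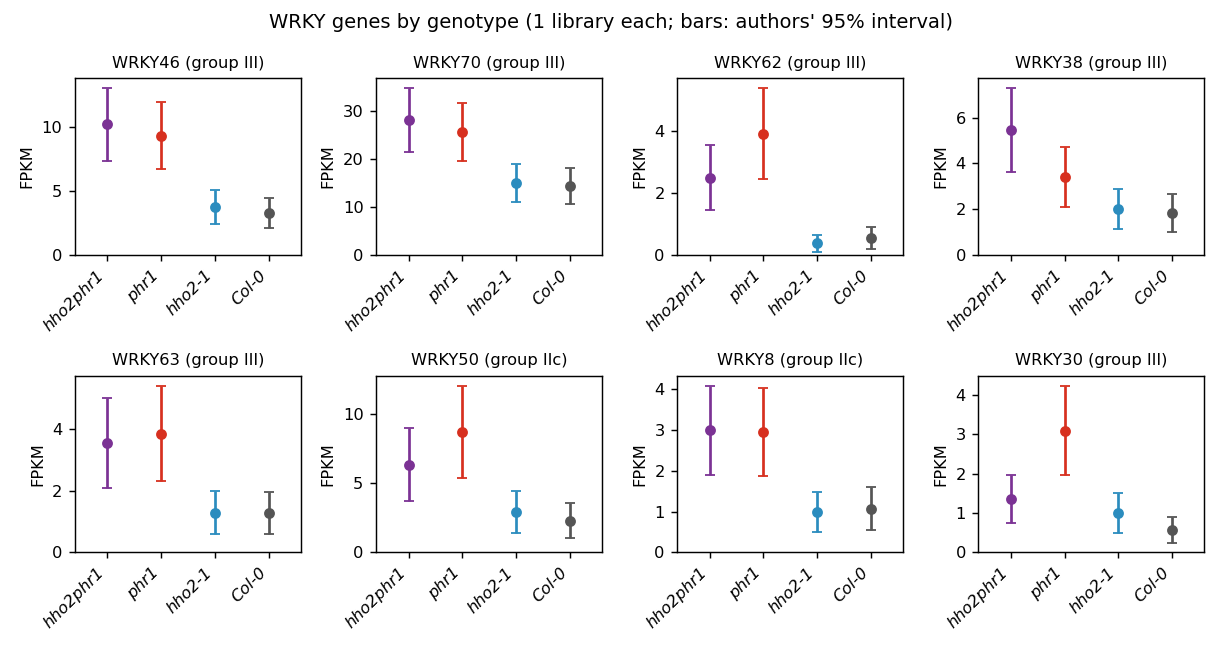
FPKM of the 8 WRKY genes that were 2-fold higher with the phr1 allele in at least 1 background or at least 1.5-fold higher in both; each point is 1 library and the bars are the authors' 95% intervals. In all 8 genes the hho2phr1 and phr1 points lie above the hho2-1 and Col-0 points, but in WRKY30 the hho2phr1 point, at 1.36 FPKM, is closer to hho2-1 than to phr1.

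Most other members differed little with the phr1 allele. The size of the log2 difference was under 0.5 in 48 of 58 members between phr1 and Col-0 and in 46 of 59 between hho2phr1 and hho2-1. The median difference was 0.13 between phr1 and Col-0 and 0.21 between hho2phr1 and hho2-1, against −0.002 and 0.005 over all genes tested in those comparisons. Members above 0 made up 70.7% and 72.9%, against 49.5% and 50.7% of all genes tested. Without the minimum on FPKM, the medians over all 68 members were 0.10 and 0.16. After rescaling the libraries to equal sums of FPKM, the member median was 0.05 instead of 0.13 between phr1 and Col-0 and 0.10 instead of 0.21 between hho2phr1 and hho2-1. The median over all genes tested then stood at −0.08 between phr1 and Col-0 and −0.10 between hho2phr1 and hho2-1.

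The signs of the differences were also compared between backgrounds. With the phr1 allele 32 of 59 members were above 0 in both, 6 were below 0 in both and 21 had opposite signs. Over all genes, with the same minimum on FPKM, 30.9% were above 0 in both and 30.7% were below 0 in both. WRKY62 and WRKY71 passed the minimum through the libraries with the phr1 allele only, so they had to fall among the 32. WRKY13 passed through hho2-1 and Col-0 only, so it had to fall among the 6. The largest negative differences in these comparisons were those of WRKY56, at 2.26 FPKM in hho2phr1 and 2.07 FPKM in phr1, against 3.45 FPKM in hho2-1 and 3.92 FPKM in Col-0. Its differences of −0.68 between phr1 and Col-0 and −0.45 between hho2phr1 and hho2-1 stayed under 2-fold. No member had intervals apart in the lower direction, against 0.408% and 2.24% of all genes tested in these comparisons. With so few members, this absence is near those shares. WRKY56 shares 92.2% of its coding bases with WRKY24 over 269 bases, so part of its reads may be assigned to either gene.

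**Figure D3:**
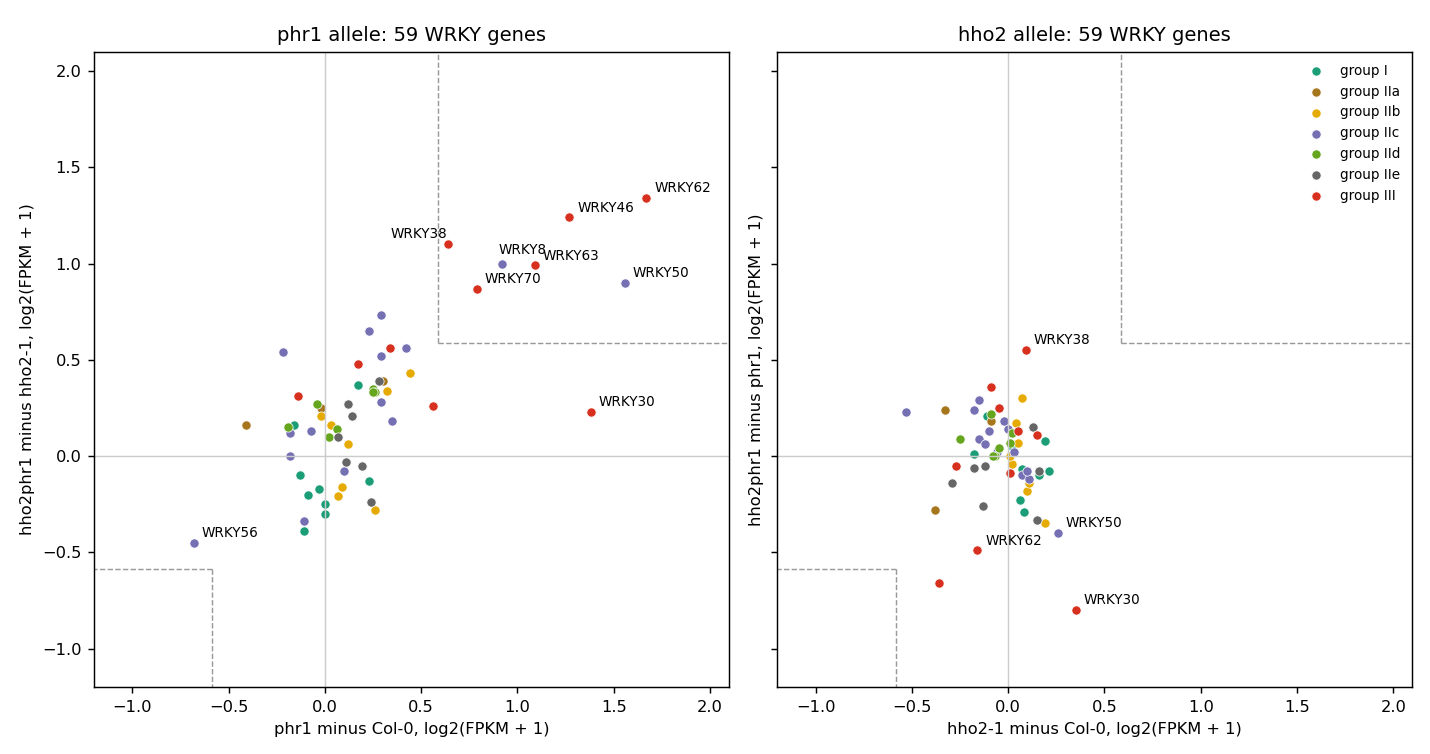
Log2(FPKM + 1) differences of the 59 WRKY genes for the phr1 allele (left; phr1 minus Col-0 on the horizontal axis, hho2phr1 minus hho2-1 on the vertical) and for the hho2 allele (right; hho2-1 minus Col-0 and hho2phr1 minus phr1); each point is a gene, coloured by structural group, and dashed lines mark 1.5-fold in both backgrounds. For phr1, 7 genes lie in the upper corner and none in the lower, and for hho2 both corners are empty.

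By structural group, the 10 members of group III with at least 1 FPKM in any library had a median difference of 0.72 between phr1 and Col-0 and 0.71 between hho2phr1 and hho2-1. In the first comparison 9 of these 10 genes were above 0, and in the second all 10 were. WRKY55 is counted here although it was under 1 FPKM in both libraries of the first comparison. It passed the minimum through hho2phr1 only, so its sign in the second comparison was fixed by the minimum. WRKY62 passed through the libraries with the phr1 allele only, which fixed its sign in both comparisons. The medians and counts include both genes. The FPKM of all 13 group III genes gave sums of 62.2 FPKM in hho2phr1 and 62.5 FPKM in phr1, against 31 FPKM in hho2-1 and 31.4 FPKM in Col-0. WRKY70 supplied a large part; without it the sums were 34 FPKM in hho2phr1 and 36.8 FPKM in phr1, against 16 FPKM in hho2-1 and 17 FPKM in Col-0. Both sums separated the libraries by their PHR1 genotype.

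Among group III genes that were not called, WRKY53, a regulator of leaf senescence, was at 4.26 FPKM in hho2phr1, 7.3 FPKM in phr1, 3.4 FPKM in hho2-1 and 4.62 FPKM in Col-0. Its values for hho2phr1 and Col-0 were nearly equal. WRKY41, which is 87.8% identical to WRKY53 over 271 coding bases, was at 1.88 FPKM in hho2phr1 and 1.99 FPKM in phr1, against 0.958 FPKM in hho2-1 and 1.36 FPKM in Col-0. WRKY55 was at 1.31 FPKM in hho2phr1 and 0.936 FPKM in phr1, against 0.658 FPKM in hho2-1 and 0.722 FPKM in Col-0.

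In the remaining groups, counted in the same way, the phr1 medians were smaller. Group IIc, with 15 such members, had medians of 0.23 between phr1 and Col-0 and 0.28 between hho2phr1 and hho2-1. WRKY71, at 0.686 FPKM in hho2-1 and 0.909 FPKM in Col-0, passed the minimum through the libraries with the phr1 allele only. This fixed its sign in both comparisons, and its own difference of 0.23 is the median of the first. WRKY13 passed through hho2-1 and Col-0 only, which fixed its sign as negative in both. The medians include both genes. Members of group IIc spanned the widest range of the 7 groups, from −0.56 for WRKY56 to 1.23 for WRKY50 in the mean over both backgrounds. Group I, with 9 such members, had medians of −0.03 and −0.17 in the same comparisons. Group IIa holds WRKY18, WRKY40 and WRKY60, which interact with each other and restrain defence, and its medians were −0.02 and 0.25. Groups IIb, IId and IIe had medians between 0.06 and 0.14 in phr1 against Col-0 and between 0.10 and 0.27 in hho2phr1 against hho2-1.

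WRKY40 was at 18.4 FPKM in hho2phr1, 22.6 FPKM in phr1, 13.8 FPKM in hho2-1 and 18.2 FPKM in Col-0, and WRKY60 at 16.4, 13.7, 14.5 and 18.5 FPKM in the same order. WRKY40 was barely higher in hho2phr1 than in Col-0, and WRKY60 was highest in Col-0. Of group IIb, WRKY72, which contributes to basal defence, had 17.4 FPKM in hho2phr1 and 17.5 FPKM in phr1, against 12.7 FPKM in hho2-1 and 12.6 FPKM in Col-0. That separation, 0.44 between phr1 and Col-0 and 0.43 between hho2phr1 and hho2-1, was steady across backgrounds but below the 1.5-fold rule.

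**Figure D4:**
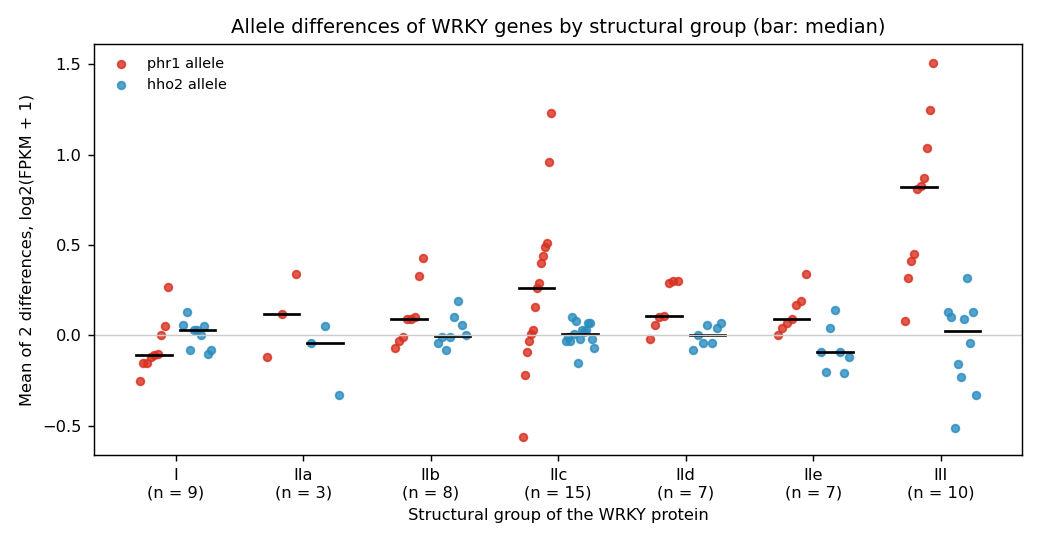
Mean of the 2 background-specific log2(FPKM + 1) differences of each of the 59 WRKY genes with at least 1 FPKM in any library, for the phr1 allele (red, left of each pair) and the hho2 allele (blue), by structural group; black bars are medians. The phr1 median is 0.82 in group III and 0.26 in group IIc, while the hho2 medians of all 7 groups lie between −0.09 and 0.03.

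Positions relative to PHR1 were read for the genes higher with the phr1 allele, and an effect of linkage to its insertion was not tested. Of the 7 members that met the 1.5-fold rule, 4 are on chromosome 5 and 1 each on chromosomes 1, 2 and 3, while none of the 16 members on chromosome 4, which carries PHR1, met it. The member nearest to PHR1, WRKY20 at 0.692 Mb, had differences of 0.00 between phr1 and Col-0 and −0.25 between hho2phr1 and hho2-1. In the 250 bases before their starts, 1 of the 7, WRKY62, held a W-box and none held the PHR1 element. In 1000 bases 5 of the 7 held a W-box, near the 67.3% of all genes, and 1, WRKY50, held the PHR1 element, against 20.3% of all genes.

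With the hho2 allele no member was called. None of 56 members was called between hho2-1 and Col-0, where 0.418% of all 20341 genes were called higher and 0.462% lower. None of 58 was called between hho2phr1 and phr1, where 0.634% of all 20353 genes were called higher and 0.472% lower. By the FPKM values alone WRKY30 in hho2phr1 was at 0.438 of its phr1 level, but its log2(FPKM + 1) difference was −0.80. No WRKY gene was 1.5-fold higher or lower the same way in both PHR1 backgrounds, against 0.281% of all genes higher and 0.218% lower. Shares this low correspond to fewer than 1 gene among the members, so the absence of calls is near the background.

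The member medians were 0.01 between hho2-1 and Col-0 and 0.02 between hho2phr1 and phr1. A difference under 0.5 in size was found for 55 of 56 and 55 of 58 members in these comparisons. No member had intervals apart in either. Over all genes tested, intervals were apart for 0.261% higher and 0.27% lower between hho2-1 and Col-0. Between hho2phr1 and phr1 these shares were 0.717% and 0.368%, so the absence among members is near the background. The lowest and highest differences were −0.53 and 0.35 between hho2-1 and Col-0, and −0.80 and 0.55 between hho2phr1 and phr1. WRKY30 gave both the 0.35 and the −0.80, and WRKY38 gave the 0.55. WRKY46, WRKY70, WRKY63 and WRKY8 differed by 0.15, 0.05, 0.01 and −0.06 between hho2-1 and Col-0 and by 0.11, 0.13, −0.09 and 0.02 between hho2phr1 and phr1. Of the 6 organ genes, TIP2;3 was called lower in hho2-1, at 6.75 FPKM, against 14.8 FPKM in Col-0, and the light-harvesting gene LHCB1.1 was called higher in hho2phr1, at 294 FPKM, against 106 FPKM in phr1. The part of organ composition in the differences was not tested.

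Between the double mutant and the wild type, 4 of 59 members (6.78%) were called higher in hho2phr1 than in Col-0 and none lower, against 1.26% higher and 0.647% lower of all 20400 genes. They were WRKY46 at 1.39, WRKY38 at 1.19, WRKY62 at 1.18 and WRKY50 at 1.16. WRKY63 at 1.00 after rounding was just short of the threshold, and WRKY8 at 0.94 and WRKY70 at 0.92 were near it. This comparison shares its libraries with those above and is no separate evidence.

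None of the 4 phosphate-related members was called in any comparison. WRKY6 (AT1G62300, chr1:23016683-23019279) was at 45.4 FPKM in hho2phr1, 36.8 FPKM in phr1, 39.2 FPKM in hho2-1 and 37.2 FPKM in Col-0. WRKY42 (AT4G04450, chr4:2218379-2221114) was at 1.33 FPKM in hho2phr1, 1.08 FPKM in phr1, 1.09 FPKM in hho2-1 and 1.04 FPKM in Col-0. In both repressors of PHO1 hho2phr1 was highest, and the intervals of the 4 libraries overlapped.

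WRKY45 (AT3G01970, chr3:326397-327412) was at 84.1 FPKM in hho2phr1 and 82.9 FPKM in phr1, against 69.0 FPKM in hho2-1 and 67.5 FPKM in Col-0. WRKY75 (AT5G13080, chr5:4149740-4151150) was at 22.9 FPKM in hho2phr1 and 20.8 FPKM in phr1, against 15.6 FPKM in hho2-1 and 16.8 FPKM in Col-0. Both genes were higher in each library with the phr1 allele, by 0.29 for each gene between phr1 and Col-0 and by 0.28 and 0.52 between hho2phr1 and hho2-1, with intervals that overlapped. The target of WRKY6 and WRKY42, PHO1, was at 101 FPKM in hho2phr1, 113 FPKM in phr1, 101 FPKM in hho2-1 and 115 FPKM in Col-0. PHT1;1, the target of WRKY45, was at 66.3 FPKM in hho2phr1, 80.3 FPKM in phr1, 77.6 FPKM in hho2-1 and 96.4 FPKM in Col-0. PHT1;1 was lowest in hho2phr1, where WRKY45 was at nearly the same level as in phr1. A link between the levels of WRKY45 and PHT1;1 was not tested.

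**Figure D5:**
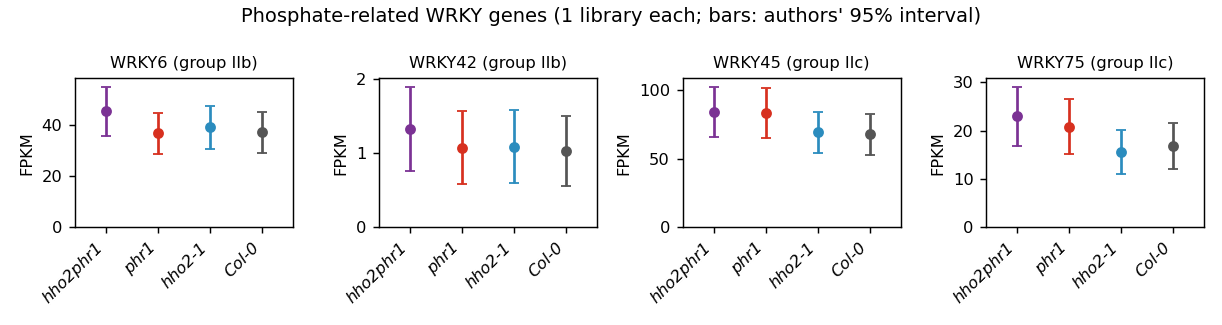
FPKM of the 4 WRKY genes known from phosphate transport or starvation; each point is 1 library and the bars are the authors' 95% intervals. WRKY45 and WRKY75 are higher in hho2phr1 and phr1 than in hho2-1 and Col-0, with overlapping intervals, and WRKY6 and WRKY42 are highest in hho2phr1.

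Companion genes of the WRKY pathway were counted in the same way, and their counts stand against the same shares of all genes called, 0.773% higher and 0.576% lower between phr1 and Col-0 and 1.27% higher and 0.719% lower between hho2phr1 and hho2-1. VQ proteins bind WRKY proteins through a short VQ motif, and of 13 tested VQ genes 1 was called higher in each of the comparisons of the phr1 allele and none lower. That gene, VQ10 (AT1G78410), whose product binds WRKY8, was at 7.49 FPKM in hho2phr1 and 8.99 FPKM in phr1, against 2.88 FPKM in hho2-1 and 3.83 FPKM in Col-0. SIB1, a partner of WRKY33, was at 12.6 FPKM in hho2phr1 and 10.9 FPKM in phr1, against 6.18 FPKM in hho2-1 and 6.09 FPKM in Col-0. Both genes were split by the PHR1 genotype, as were the 7 WRKY genes above, and the VQ medians were 0.14 between phr1 and Col-0 and 0.37 between hho2phr1 and hho2-1.

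MAP kinases phosphorylate several WRKY proteins. Of 9 cascade genes tested none was called between phr1 and Col-0 and 1, MPK11, between hho2phr1 and hho2-1, with list medians of 0.00 and 0.23. MPK11 was at 5.14 FPKM in hho2phr1 and 3.52 FPKM in phr1, against 1.88 FPKM in hho2-1 and 1.72 FPKM in Col-0. With the hho2 allele no VQ or cascade gene was called in either comparison.

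Genes known as targets of WRKY proteins were called in both directions. Of 19 tested between phr1 and Col-0, 3 were higher and 1 lower, and of 18 tested between hho2phr1 and hho2-1, 3 were higher and none lower. The pathogenesis-related gene PR1 was at 157 FPKM in hho2phr1 and 111 FPKM in phr1, against 10.5 FPKM in hho2-1 and 20.8 FPKM in Col-0. CYP71A13, a camalexin synthesis gene activated by WRKY33, was at 21.7 FPKM in hho2phr1 and 32.9 FPKM in phr1, against 7.71 FPKM in hho2-1 and 5.27 FPKM in Col-0. Its paralogue CYP71A12, with which reads may be shared, was at 81.7 FPKM in hho2phr1 and 82.0 FPKM in phr1, against 38.6 FPKM in hho2-1 and 38.0 FPKM in Col-0. These 3 genes separated by PHR1 genotype. WRKY33 did so by a smaller margin and was not called, with differences of 0.17 between phr1 and Col-0 and 0.37 between hho2phr1 and hho2-1.

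SAG12, a senescence gene, ran the other way. It was at 0.421 FPKM in hho2phr1, 1.04 FPKM in phr1 and 1.04 FPKM in hho2-1, against 6.25 FPKM in Col-0. Col-0 thus stood above all 3 mutant libraries, and SAG12 was the target called lower in phr1, in hho2-1 and in hho2phr1, each against Col-0.

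Some family members carry other names in the table and fell outside the naming rule. ZAP1 (WRKY1) was at 35.6 FPKM in hho2phr1, 37.0 FPKM in phr1, 42.1 FPKM in hho2-1 and 38.2 FPKM in Col-0. TTG2 (WRKY44), which acts in trichome and seed coat development, was at 1.25, 1.38, 1.91 and 1.83 FPKM in the same order. TTR1 (WRKY16) and RRS1 (WRKY52), whose products join a WRKY domain to an immune receptor, were between 7.51 and 8.93 FPKM in all libraries. None of these 4 genes was called, and all 4 were slightly lower with the phr1 allele, by 0.05 to 0.37 on the log2 scale.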

How the data were processed

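Poly(A)+ RNA of 4 libraries, 1 per genotype, was prepared with ScriptSeq v2, per the labels. The reads were processed by the authors with TopHat2 2.0.11 and Cuffdiff 2.2.1 on TAIR10, per the submitters' processing notes. The deposited table holds FPKM per gene with the lower and upper bound of Cuffdiff's 95% interval, per the file headers. The library type setting, the annotation release and the scaling between libraries are not given in the sources used here. The interval of a single library reflects counting and the program's model of spread, not variation between plants.

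Members and lists (structural groups, VQ partners, MAP kinases, known targets, organ genes) were chosen with earlier results of these data known. Differences were taken as log2(FPKM + 1), and a gene with at least 1 FPKM in either library was called at a difference of 1 or more. No test was made, since no genotype is replicated. Named genes were those called in any comparison, those at least 1.5-fold different the same way in both backgrounds, WRKY6, WRKY42, WRKY45 and WRKY75, and the 5 with the highest mean; others were named for contrast, after their values were seen. Depth came from the FPKM value of 1 fragment, fitted on transcript length over 144 to 188 genes per library; of the values worth 1 to 20 fragments, 99.4% to 99.6% fell within 0.1 of a whole fragment count. These depths are estimates. The authors' interval reached in the median 23% of the value to either side for members with a mean of at least 10 FPKM and 38.9% for those of 1 to 10 FPKM.

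Sequences were read from RefSeq's TAIR10.1 genome. All 68 members were found in it, and of 32810 matched nuclear genes 12793 had the same start as in the table and 12656 the same end. Promoters were read as 250 or 1000 bases before the RefSeq start. The plan had also included 50 bases after it. Gene coordinates are those of the table. Like coding sequences were found with BLAST+ 2.17.0 (at least 80% identity over at least 100 bases). Python 3.11.15, pandas 2.3.3, numpy 2.4.6 and matplotlib 3.10.9 were used.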

Additional observations from a re-analysis of the deposited data

Results flagged for a closer look

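WRKY30 moved in opposite directions with the hho2 allele, depending on PHR1. The log2 difference was −0.80 between hho2phr1 and phr1, against 0.35 between hho2-1 and Col-0, so the first minus the second was −1.15. WRKY50 showed the same pattern with −0.40 between hho2phr1 and phr1, against 0.26 between hho2-1 and Col-0, a change of −0.66. Each pair was noted because the signs are opposite and both sizes are at least 0.25. With 1 library per genotype the difference between backgrounds was not tested, and the authors' intervals overlapped in each of these hho2 comparisons.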

How the results depend on the processing

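Each count was recomputed with a pseudocount of 0.1 or 0.5 and with no minimum or one of 5 FPKM. Recounts were also made with FPKM rescaled to equal sums or by the median of ratios, and 2-fold counts with intervals required apart. Dropping the minimum could not change a 2-fold count, because with a pseudocount of 1 such a call needs at least 1 FPKM in the higher library. These recounts, and counts that were 0 both times, are included among those that stayed. Of 47 recomputed counts 41 stayed within 1.5 times the value reported and 6 moved, and no called difference changed sign; of the named genes WRKY42, not called, was at −0.02 instead of 0.03 between phr1 and Col-0 with equal sums. With a pseudocount of 0.1, 7 instead of 4 members were called between hho2phr1 and Col-0, 7 instead of 4 between hho2phr1 and hho2-1, and 1 instead of 0 (WRKY30) between hho2phr1 and phr1; a smaller pseudocount enlarges differences of low genes. With a minimum of 5 FPKM, which tests fewer genes, 2 instead of 5 were called between phr1 and Col-0 (WRKY46 and WRKY50), 2 instead of 4 between hho2phr1 and hho2-1 (WRKY46 and WRKY38), and 4 instead of 7 met the 1.5-fold rule for phr1 in both backgrounds (WRKY46, WRKY70, WRKY38 and WRKY50). With equal sums, WRKY8 at 0.94 lost its call between hho2phr1 and hho2-1. Over all genes, 208 were then called higher and 213 lower between hho2phr1 and hho2-1, instead of 259 and 147. With the same rescaling 6 instead of 7 members met the 1.5-fold rule, because WRKY38 was at 0.57 between phr1 and Col-0. No paired analysis was possible because each genotype has 1 library and so no replicate numbers to pair; the comparison of an allele in both backgrounds pairs genotypes, not replicates.

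Among 526 recomputed differences of single named genes, 12 gained and 1 lost the call. Of the genes higher with the phr1 allele, WRKY62, WRKY63, WRKY8 and WRKY30 lay under 5 FPKM in every library, where the authors' intervals are wide. Depth limits these more than the abundant members. A single library per genotype is the main limit: no value above separates the genotype from the plants, the harvest or the library that carried it.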
